A study of Mus musculus with 10 samples.

Results

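The platelet-derived growth factor (PDGF) family was examined as 6 genes, the ligands Pdgfa, Pdgfb, Pdgfc and Pdgfd and the receptors Pdgfra and Pdgfrb, out of 19938 genes named on the array. They were chosen by symbol, and each had 1 probe set that carried its symbol alone, so no choice between probe sets was needed. Expression was measured in mesenchymal stromal cells, which grow attached to plastic out of bone marrow and can form bone and fat. The cells were cultured from female C57BL/6J mice of 6 to 8 weeks of age and used at passage 16 to 17, with no transgene, deletion or treatment named for any of them. They formed 5 preparations, MSC I, MSC II, MSC III, MSC IV and MSC V, each with 2 arrays, and total RNA labelled with biotin was hybridised to 10 arrays. How many mice went into a preparation, and whether its arrays came from separate cultures, are not given, so the p-values reflect only array-to-array spread within a preparation, possibly technical. No preparation is a control, and the comparison asks how far 5 preparations of 1 kind of cell differ in this family.

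PDGFs are dimers that bind a pair of related receptor tyrosine kinases. PDGF-A, PDGF-B and PDGF-C activate the alpha receptor, which Pdgfra encodes, and PDGF-B and PDGF-D activate the beta receptor, which Pdgfrb encodes. PDGF-C and PDGF-D are secreted in a latent form and become active after a protease removes their CUB domain. In mesenchymal cells the pathway drives division and migration, and both receptors are used as surface markers of stromal cells and pericytes.

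The family differed most between MSC I and MSC IV. MSC I had more Pdgfra, Pdgfrb and Pdgfd than MSC IV and less Pdgfa and Pdgfc, so that both receptors and the beta-receptor ligand Pdgfd ran against the alpha-receptor ligands Pdgfa and Pdgfc in this pair. On all 10 arrays 5 of the 6 genes exceeded the table median of 6.55 log2 and were tested, whereas Pdgfb stayed below it on all 10. Pdgfra only just exceeded it on MSC IV replicate 1, at 6.56. Levels are log2 values, so a difference of 1 is a fold of 2, and a gene was called where the adjusted p was under 0.05 and the difference reached 1 log2. In limma's moderated F test over the 5 preparations, with Benjamini-Hochberg adjustment over 10971 genes, all 5 tested members were called, beside 29.1% of all tested genes. The range of their preparation means had a median of 2.70 log2, beside 0.75 log2 over all tested genes. The Pdgfrb call was the weakest and is qualified with its values. In bulk cultures like these, fewer cells of a type and less RNA per cell cannot be told apart.

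**Figure D1:**
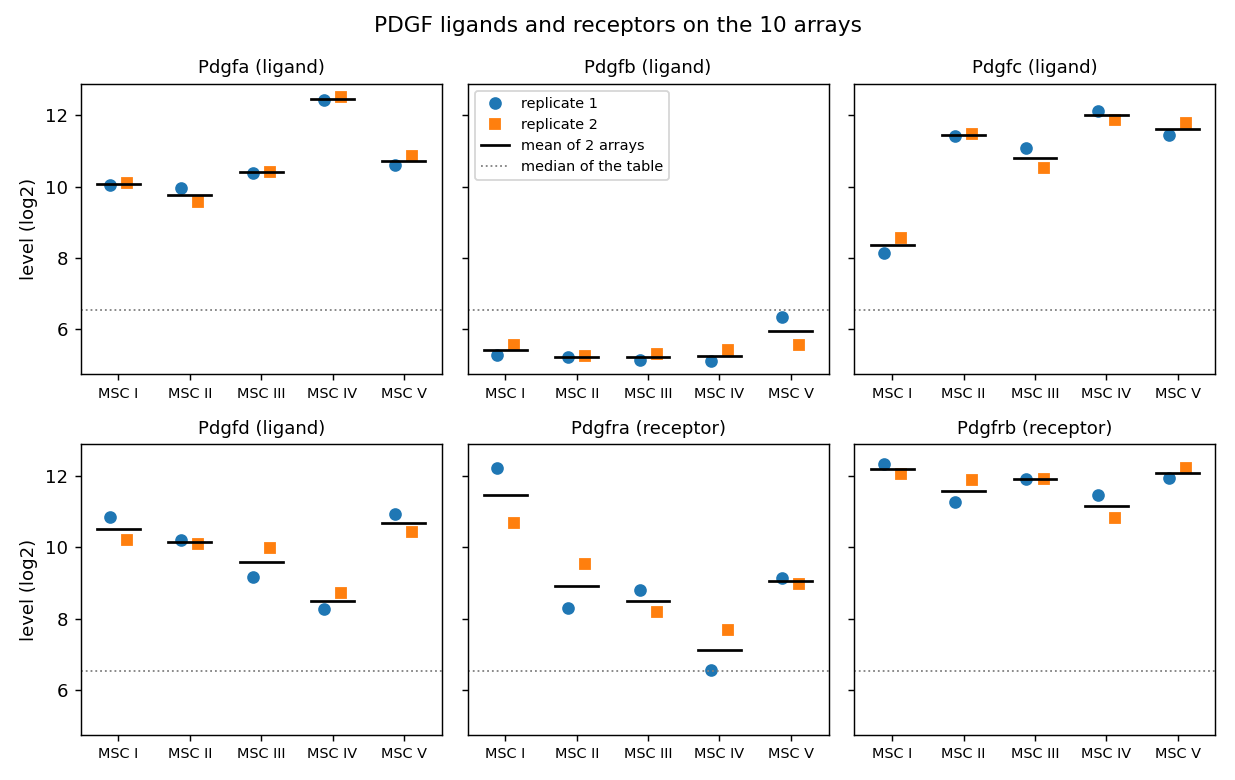
Level (log2) of each ligand and receptor on the 10 arrays, with circles for replicate 1, squares for replicate 2, a bar for the mean of 2 arrays and a dotted line at the median of the table (6.55 log2). Pdgfa stands highest in MSC IV and Pdgfc lowest in MSC I, while Pdgfra runs the other way, with means of 11.46 in MSC I and 7.11 in MSC IV.

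The label was checked against markers. The stromal markers Itgb1 (12.32 to 12.60 over the arrays) and Cd44 (9.05 to 10.17) were high, while Eng (CD105) and Thy1 (CD90), also used to define these cells, exceeded the table median on only 2 and 3 of 10 arrays. Of 11 haematopoietic markers, the defining ones lay near the bottom of the scale, with Ptprc (CD45) between 5.11 and 5.25, Itgam between 4.70 and 4.83 and Adgre1 between 4.92 and 5.02 on the 10 arrays. Of 8 endothelial markers, Pecam1 lay between 4.82 and 5.05 and Cdh5 between 4.91 and 5.18. The mean level over the haematopoietic list was between 5.29 and 5.73, and over the endothelial list between 5.15 and 5.42. Cd68 (8.54 ± 0.0107 in MSC V, SD, n = 2) and Cd14 (6.95 ± 0.344 in MSC V) were the haematopoietic genes that passed the low-value filter, and both were called with their highest mean in MSC V and lowest in MSC IV. Cd14 exceeded the table median on only 3 of 10 arrays, both of MSC V and MSC II replicate 2, so it was tested only because it was high there. Of the endothelial list only Egfl7 was tested, and 0 of 1 was called. Its adjusted p was 0.0156 in limma's F test, but its range of 0.83 fell under the minimum of 1 log2. Array medians lay between 6.45 and 6.63.

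RefSeq promoter windows (build GRCm38.p6) were at hand for 4 members, and those of the ligand and receptor genes that separated MSC I from MSC IV most are shown to set their sequence side by side. Each is the stretch of 250 bases before an annotated start, and Pdgfa has 2 such starts. Their positions are chr5:138994282-138994531, minus strand, and chr5:138994945-138995194, minus strand, for Pdgfa, chr3:81036166-81036415, plus strand, for Pdgfc, and chr5:75152001-75152250, plus strand, for Pdgfra. Each is written 5′ to 3′ along the gene's own strand, with capitals for a match on either strand to one of the motifs searched. These were the GC box, spelled GGGCGG, the TATA box, spelled TATAAA, the box named by its letters CCAAT, the AP-1 site, spelled TGANTCA, and the ETS core, spelled AGGAAG. The matches in the windows do not overlap.
Pdgfa, window 1: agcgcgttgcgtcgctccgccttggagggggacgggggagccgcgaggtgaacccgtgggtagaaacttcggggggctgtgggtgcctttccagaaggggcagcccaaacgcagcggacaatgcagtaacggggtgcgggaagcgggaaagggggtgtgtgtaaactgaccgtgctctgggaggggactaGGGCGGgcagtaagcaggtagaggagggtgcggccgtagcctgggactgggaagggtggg
Pdgfa, window 2: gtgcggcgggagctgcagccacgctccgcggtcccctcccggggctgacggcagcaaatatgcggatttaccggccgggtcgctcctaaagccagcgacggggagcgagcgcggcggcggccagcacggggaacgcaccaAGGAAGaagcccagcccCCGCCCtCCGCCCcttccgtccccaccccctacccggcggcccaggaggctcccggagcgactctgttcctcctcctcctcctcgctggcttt
Pdgfc: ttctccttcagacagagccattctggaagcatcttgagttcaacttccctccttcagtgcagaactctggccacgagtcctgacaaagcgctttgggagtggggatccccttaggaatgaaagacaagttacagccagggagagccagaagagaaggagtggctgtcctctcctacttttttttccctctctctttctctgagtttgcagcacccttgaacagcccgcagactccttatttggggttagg
Pdgfra: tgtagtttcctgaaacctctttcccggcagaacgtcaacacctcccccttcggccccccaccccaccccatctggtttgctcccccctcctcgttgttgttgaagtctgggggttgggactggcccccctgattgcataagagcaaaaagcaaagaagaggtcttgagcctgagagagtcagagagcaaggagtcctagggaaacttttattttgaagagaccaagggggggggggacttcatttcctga
The Pdgfa windows were rich in G and C (66.4% and 72.4%, beside a median of 52.4% over 32851 windows) and held 19 and 28 CG pairs. The Pdgfc and Pdgfra windows were near the median at 50.8% and 54.4%, with 3 and 4 CG pairs. The GC box, the letters bound by SP1, occurred 60 bases before the start in the first Pdgfa window, and 93 and 86 bases before it in the second, where it reads on the opposite strand. The second Pdgfa window also held the ETS core 110 bases before its start. Of all windows, 32.7% held a GC box, 12.4% a TATA box, 33.8% a CCAAT box, 6.75% an AP-1 site and 29.5% an ETS core. None of these letters occurred in the Pdgfc and Pdgfra windows shown, which says nothing of which factors act on these genes. The Pdgfd window, not printed, held TATAAA 160 bases before its start.

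Pdgfa, which encodes the ligand of the alpha receptor that forms AA dimers, was set apart by MSC IV. Its level was 10.04 and 10.10 in MSC I, 9.97 and 9.55 in MSC II, 10.39 and 10.40 in MSC III, 12.42 and 12.51 in MSC IV, and 10.60 and 10.84 in MSC V. Both arrays of MSC IV lay above all 8 others, and the means of the remaining preparations lay between 9.76 in MSC II and 10.72 in MSC V. The range of means was 2.70 (adjusted p = 8.96e-05 in limma's F test). Against MSC IV the differences were -2.39 ± 0.16 (SE) in MSC I, -2.70 ± 0.16 in MSC II and -2.07 ± 0.16 in MSC III, and the difference MSC IV minus MSC V was 1.74 ± 0.16. These correspond to levels 5.26-fold, 6.52-fold and 4.20-fold lower in MSC I, MSC II and MSC III than in MSC IV, and 3.35-fold higher in MSC IV than in MSC V (limma adjusted p = 3.37e-05, 8.04e-05, 0.000356 and 0.000564). All 4 differences were called under every one of the 18 alternatives run on them. Below MSC IV, the order MSC V, MSC III, MSC I, MSC II was made of steps of 0.33, 0.32 and 0.31 that did not pass the test (adjusted p = 0.266, 0.17 and 0.16). MSC I minus MSC V was -0.65 ± 0.16 (limma adjusted p = 0.0236), under the minimum of 1 log2. MSC II minus MSC V was -0.96 ± 0.16 (adjusted p = 0.0103), just under the minimum of 1 log2, and passed it with arrays centred on their medians (-1.04), or when MSC II replicate 1 (-1.17) or MSC V replicate 1 (-1.08) was left out.

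Pdgfc, the latent ligand of the alpha receptor, was set apart by MSC I. Its level was 8.15 and 8.57 in MSC I, 11.41 and 11.48 in MSC II, 11.07 and 10.53 in MSC III, 12.13 and 11.86 in MSC IV, and 11.46 and 11.77 in MSC V. Both arrays of MSC I lay below all 8 others by a wide margin. The range of means was 3.63 (adjusted p = 0.000111 in limma's F test). The difference from MSC I was -3.09 ± 0.23 (SE) for MSC I minus MSC II, -2.44 ± 0.23 for MSC I minus MSC III, -3.63 ± 0.23 for MSC I minus MSC IV and -3.25 ± 0.23 for MSC I minus MSC V. MSC I was thus 8.49-fold, 5.43-fold, 12.4-fold and 9.53-fold lower (limma adjusted p = 7.51e-05, 0.000292, 2.4e-05 and 6.19e-05), and these 4 calls held under all 18 alternatives. Among the other preparations, MSC III minus MSC IV was -1.19 ± 0.23 (adjusted p = 0.0141), a call lost without MSC III replicate 2 (-0.92, adjusted p = 0.0937), MSC IV replicate 1 (-1.06, adjusted p = 0.0677) or MSC IV replicate 2 (-1.33, adjusted p = 0.0565). MSC II, MSC IV and MSC V were not separated by the test, and the arrays of MSC II and MSC V overlapped.

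Pdgfd, the latent ligand of the beta receptor, was lowest in MSC IV. Its level was 10.85 and 10.19 in MSC I, 10.20 and 10.09 in MSC II, 9.16 and 9.99 in MSC III, 8.29 and 8.73 in MSC IV, and 10.92 and 10.41 in MSC V. The arrays of MSC I overlapped those of MSC II and those of MSC V, and both arrays of MSC IV lay below all 8 others. The range of means was 2.16 (adjusted p = 0.00729 in limma's F test). MSC I minus MSC IV was 2.01 ± 0.34 (SE), a level 4.04-fold higher in MSC I (limma adjusted p = 0.00273). MSC IV minus MSC V was -2.16 ± 0.34, 4.48-fold lower in MSC IV (limma adjusted p = 0.00518), and both calls held under all 18 alternatives. MSC II minus MSC IV was 1.64 ± 0.34 (adjusted p = 0.0156) and lost its call without either array of MSC II (adjusted p = 0.0567 without replicate 1 and 0.0725 without replicate 2) or of MSC IV (adjusted p = 0.0759 without replicate 1 and 0.0508 without replicate 2). MSC III minus MSC IV was 1.07 ± 0.34, with an interval of 0.29 to 1.85 before adjustment (adjusted p = 0.0707). MSC I minus MSC III was 0.94 ± 0.34 (adjusted p = 0.0747) and passed only without MSC III replicate 2 (1.36, adjusted p = 0.0447).

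Pdgfb, the ligand of both receptors, which endothelial cells and platelets supply in tissues, stayed at the low end of the scale. Its level was 5.27 and 5.55 in MSC I, 5.22 and 5.26 in MSC II, 5.14 and 5.31 in MSC III, 5.12 and 5.42 in MSC IV, and 6.36 and 5.56 in MSC V. MSC V replicate 1 was the highest array, and all 9 others lay between 5.12 and 5.56. Pdgfb was not tested in the main comparison, and without the low-value filter the range of its means, 0.73, did not pass (limma adjusted p = 0.198). No detection call was used, so a low level does not show that the transcript was absent.

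Pdgfra, the alpha receptor, had the widest range of the 6 genes, between MSC I and MSC IV. Its level was 12.23 and 10.68 in MSC I, 8.31 and 9.52 in MSC II, 8.80 and 8.19 in MSC III, 6.56 and 7.67 in MSC IV, and 9.13 and 8.97 in MSC V. Both arrays of MSC I lay above all 8 others and both of MSC IV below them, although replicates were far apart, with an SD of 1.10 in MSC I, 0.853 in MSC II and 0.787 in MSC IV. The range of means was 4.34 (adjusted p = 0.00751 in limma's F test). MSC I minus MSC IV was 4.34 ± 0.61 (SE), a level 20.3-fold higher in MSC I (limma adjusted p = 0.00124). On MSC IV replicate 1 Pdgfra lay at the table median and under that array's own median of 6.63. RMA compresses differences between low values, so the size of this fold is uncertain. The difference lay between 3.57 and 5.12 over the alternatives and was called in all 18. MSC I was also higher than MSC II by 2.54 ± 0.61 (adjusted p = 0.015), than MSC III by 2.97 ± 0.61 (adjusted p = 0.0116) and than MSC V by 2.41 ± 0.61 (adjusted p = 0.026).

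Those last 3 calls rested on single arrays. Without MSC I replicate 1 all 3 were lost, at 1.77 against MSC II (adjusted p = 0.08), 2.19 against MSC III (adjusted p = 0.0693) and 1.63 against MSC V (adjusted p = 0.124). The call against MSC II was also lost without MSC II replicate 1 (1.94, adjusted p = 0.083), that against MSC III without MSC III replicate 2 (2.66, adjusted p = 0.0636), and that against MSC V without MSC V replicate 1 (2.49, adjusted p = 0.0819) or replicate 2 (2.32, adjusted p = 0.0955). MSC II, MSC III and MSC V were not separated by the test. MSC IV minus MSC V was -1.94 ± 0.61 (adjusted p = 0.0535), close to the threshold, and it passed under 7 of the 18 alternatives. MSC II minus MSC IV was 1.80 ± 0.61 (adjusted p = 0.0801). Listed genes split the arrays of MSC I in both directions: Angpt1, the Tie2 ligand, had 12.05 in replicate 1 and 10.47 in replicate 2, whereas the chemokine Ccl2 had 12.13 in replicate 1 and 13.00 in replicate 2.

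Pdgfrb, the beta receptor and a pericyte marker, varied least of the 5 tested members. Its level was 12.33 and 12.06 in MSC I, 11.26 and 11.88 in MSC II, 11.91 and 11.92 in MSC III, 11.46 and 10.83 in MSC IV, and 11.95 and 12.23 in MSC V. The arrays of MSC II and MSC IV overlapped, as did those of MSC I and MSC V. The range of means was 1.05 (adjusted p = 0.0486 in limma's F test), a call at the threshold that was lost under 10 of 17 alternatives. Leaving out either array of MSC I gave an adjusted p of 0.107 (replicate 1) and 0.077 (replicate 2), either array of MSC III gave 0.0844 and 0.0839, either array of MSC V gave 0.0651 and 0.0791, and MSC IV replicate 2 gave 0.144. MSC I minus MSC IV was 1.05 ± 0.27 (SE), a level 2.07-fold higher in MSC I (limma adjusted p = 0.0149), and it fell under the minimum of 1 log2 or lost its p with a further quantile normalisation (0.98, adjusted p = 0.0172) and on removal of MSC I replicate 1 (0.92, adjusted p = 0.082) or MSC IV replicate 2 (0.73, adjusted p = 0.0917). MSC IV minus MSC V was -0.94 ± 0.27 (adjusted p = 0.0388), under the minimum in size, and was called with arrays centred on their medians (-1.03) and without MSC IV replicate 1 (-1.26).

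Counted by pair of preparations, the family separated MSC I and MSC IV most. Between MSC I and MSC IV all 5 tested members were called, beside 20.3% of all tested genes: 3 were higher in MSC I (12.3% of all genes) and 2 lower (8.04%). MSC I had 1 member higher and 1 lower, Pdgfra and Pdgfc, in each of its other pairs. The background there was 14.9% of genes against MSC II (8.11% higher, 6.77% lower), 11.3% against MSC III (6.44% higher, 4.85% lower) and 10.5% against MSC V (6.1% higher, 4.43% lower). Against MSC IV, MSC II had higher Pdgfd and lower Pdgfa, beside 9.06% of genes (5.9% higher, 3.16% lower). MSC III had lower Pdgfa and Pdgfc than MSC IV, beside 7.99% of genes (2.47% lower). MSC IV had higher Pdgfa and lower Pdgfd than MSC V, beside 10.9% of genes (3.44% higher, 7.46% lower). Among MSC II, MSC III and MSC V limma called 0 members, where 3.02% (MSC II and MSC III), 5.56% (MSC II and MSC V) and 2.07% (MSC III and MSC V) of all genes were called. At an unadjusted p under 0.05 the counts in those 3 pairs were 2, 1 and 2 of 5. In all, 17 of 50 differences were called, and the pairs share their arrays, so these counts are not independent of each other.

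**Figure D2:**
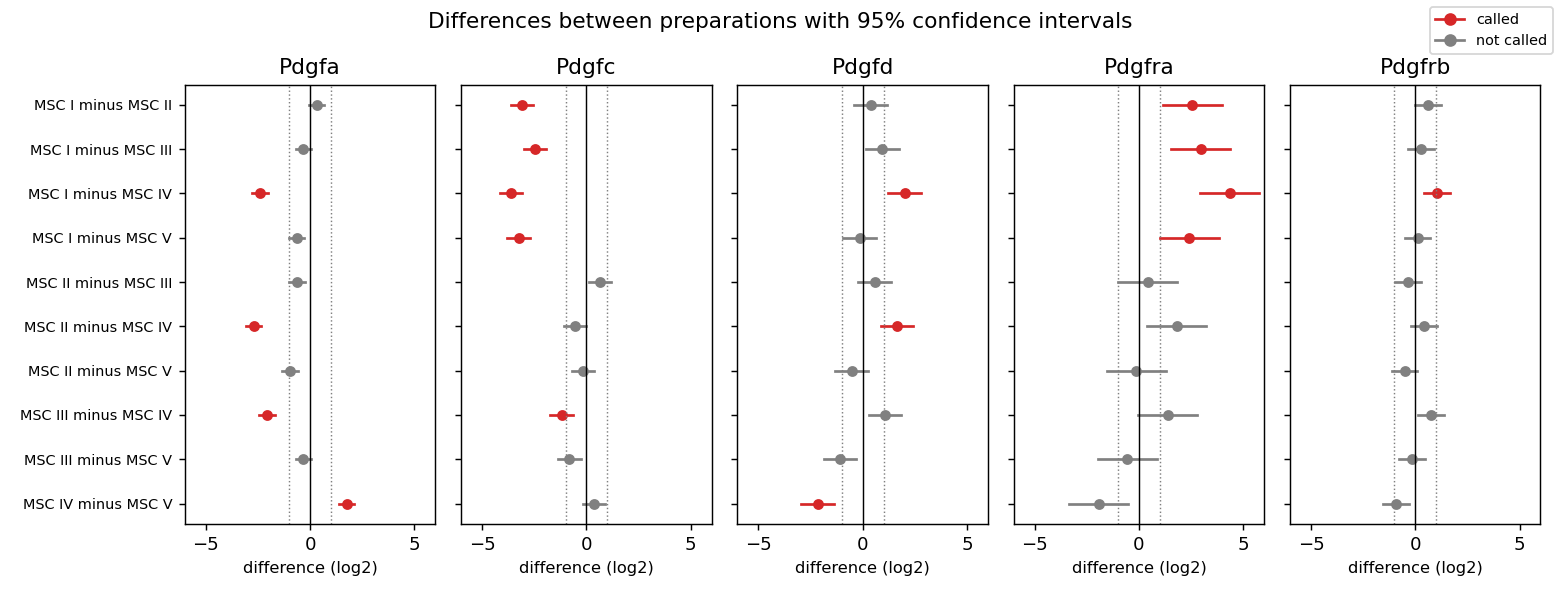
Difference in level (log2, preparation named first minus the other) of the 5 tested members in all 10 pairs of preparations, with 95% confidence intervals from limma before adjustment, red where called and grey where not, and dotted lines at -1 and 1. MSC I minus MSC IV is called in all 5 panels, to the left for Pdgfa and Pdgfc and to the right for Pdgfd, Pdgfra and Pdgfrb.

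The genes that process PDGFs or bind beside the receptors were called in 3 of 8 tested cases (37.5%, beside 29.1% of all genes). MSC IV had the highest or lowest mean in each of them. Of all 3192 called genes, 723 were highest and 1169 lowest in MSC IV. Neuropilin-1, Nrp1, a co-receptor for several growth factors, had 11.36 ± 0.603 in MSC I and 6.84 ± 0.727 in MSC IV (SD, n = 2), a range of 4.51 (limma adjusted p = 0.0097). Plat encodes tissue plasminogen activator, the protease that activates PDGF-C, and had 9.69 ± 0.669 in MSC I and 7.50 ± 0.0922 in MSC IV (limma adjusted p = 0.0441). Pcsk6, a proprotein convertase, had its highest mean of 11.15 ± 0.420 in MSC IV and its lowest of 7.50 ± 0.605 in MSC V (limma adjusted p = 0.00214). Plau, the urokinase that activates PDGF-D, spanned 2.49 log2 and was not called (limma adjusted p = 0.0833), with 5.96 ± 0.107 in MSC IV. Furin, Pcsk7, Lrp1 and Sparc had ranges under 1 log2, and Pcsk5 and St14 lay below the table median on all arrays.

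Of 17 signal transducers of the receptors, 4 were called (23.5%), a share near the 29.1% of all genes, and the median range was 0.61 log2, beside 0.75 log2 over all genes. Without the minimum of 1 log2, 10 of 17 had an adjusted p under 0.05, beside 5728 of 10971 genes. Fyn, a SRC-family kinase recruited to the receptors, was, like Pdgfc, lowest in MSC I and highest in MSC IV, at 7.84 ± 0.375 in MSC I and 11.36 ± 0.221 in MSC IV (SD, n = 2, range 3.52, limma adjusted p = 0.00017). The adaptor Nck2 had the opposite order, with 9.53 ± 0.0981 in MSC I and 7.52 ± 0.111 in MSC IV (limma adjusted p = 0.00207). The PI3-kinase subunit Pik3r1 (range 1.44, adjusted p = 0.0466) and the docking protein Gab1 (range 1.11, adjusted p = 0.0255) were lowest in MSC IV. Grb2, Shc1, Sos1, Plcg1, Ptpn11 and Pik3ca, which couple the receptors to RAS, phospholipase C and PI3-kinase, had ranges under 0.5 log2.

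Of 14 inhibitors of receptor signalling, 7 were called (50%, beside 29.1% of all genes), and 4 of these had their lowest mean in MSC IV, as did 36.6% of all called genes. Errfi1 is counted among the 7 and the 4, although it is an inhibitor of EGF receptor family kinases. It had 12.98 ± 0.226 in MSC I and 10.93 ± 0.0377 in MSC IV (SD, n = 2, limma adjusted p = 0.00481). The ERK phosphatase Dusp6 had 9.55 ± 0.252 in MSC I and 7.38 ± 0.746 in MSC IV, with its highest mean of 10.58 ± 0.809 in MSC II (limma adjusted p = 0.00641). The Sprouty gene Spry4 had 10.45 ± 0.490 in MSC I and 7.54 ± 0.0887 in MSC IV (limma adjusted p = 0.0116), and the ubiquitin ligase Cbl had 10.20 ± 0.159 in MSC I and 8.97 ± 0.0397 in MSC IV (limma adjusted p = 0.00724). Spry1 did not follow Spry4: its means were 9.12 ± 0.418 in MSC I and 10.52 ± 0.166 in MSC IV, and its lowest mean was in MSC III (limma adjusted p = 0.011). Dusp4, another phosphatase, was highest in MSC I at 9.62 ± 0.271 and lowest in MSC III at 5.99 ± 0.364 (limma adjusted p = 0.000547). Acp1, a low molecular weight phosphatase, ran the other way, with its lowest mean of 10.03 in MSC I and its highest of 11.04 in MSC IV (limma adjusted p = 0.0097).

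Of 16 tested genes that PDGF is known to induce early in fibroblasts, 7 were called (43.8%, beside 29.1% of all genes), 5 of them lowest in MSC IV, where 36.6% of all called genes were lowest. The transcription factor Egr1 had 10.55 and 10.38 in MSC I, 10.61 and 10.96 in MSC II, 10.66 and 10.04 in MSC III, 7.90 and 8.89 in MSC IV, and 10.73 and 10.18 in MSC V. Both arrays of MSC IV lay below all 8 others, and the range of means was 2.39 (limma adjusted p = 0.00651). Egr2 and Fosl1 were lowest in MSC IV as well (ranges 2.15 and 1.77, limma adjusted p = 0.0215 and 0.0052). The chemokine Ccl2, first isolated as a PDGF-induced gene, spanned 5.75 log2, with 12.57 ± 0.617 in MSC I and 6.81 ± 0.449 in MSC IV (limma adjusted p = 0.00311), and Cxcl1 spanned 1.40. Ccnd1, cyclin D1, and Odc1 were lowest in MSC II instead. In the pair MSC I and MSC IV, 5 of the 16 were called higher in MSC I and 2 lower. The lower ones were Ier2 (6.90 in MSC I and 8.38 in MSC IV, limma adjusted p = 0.0164) and Ier3 (5.66 in MSC I and 7.17 in MSC IV, limma adjusted p = 0.02), neither of which was called over all 5 preparations. Junb also had its highest mean in MSC IV, at 6.63, with 5.79 in MSC I, a difference under 1 log2. Myc, Srf and Plaur had ranges under 1 log2, Jun had a range of 1.10 that did not pass (adjusted p = 0.579), and Fos lay above the table median on 1 array and was not tested.

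**Figure D3:**
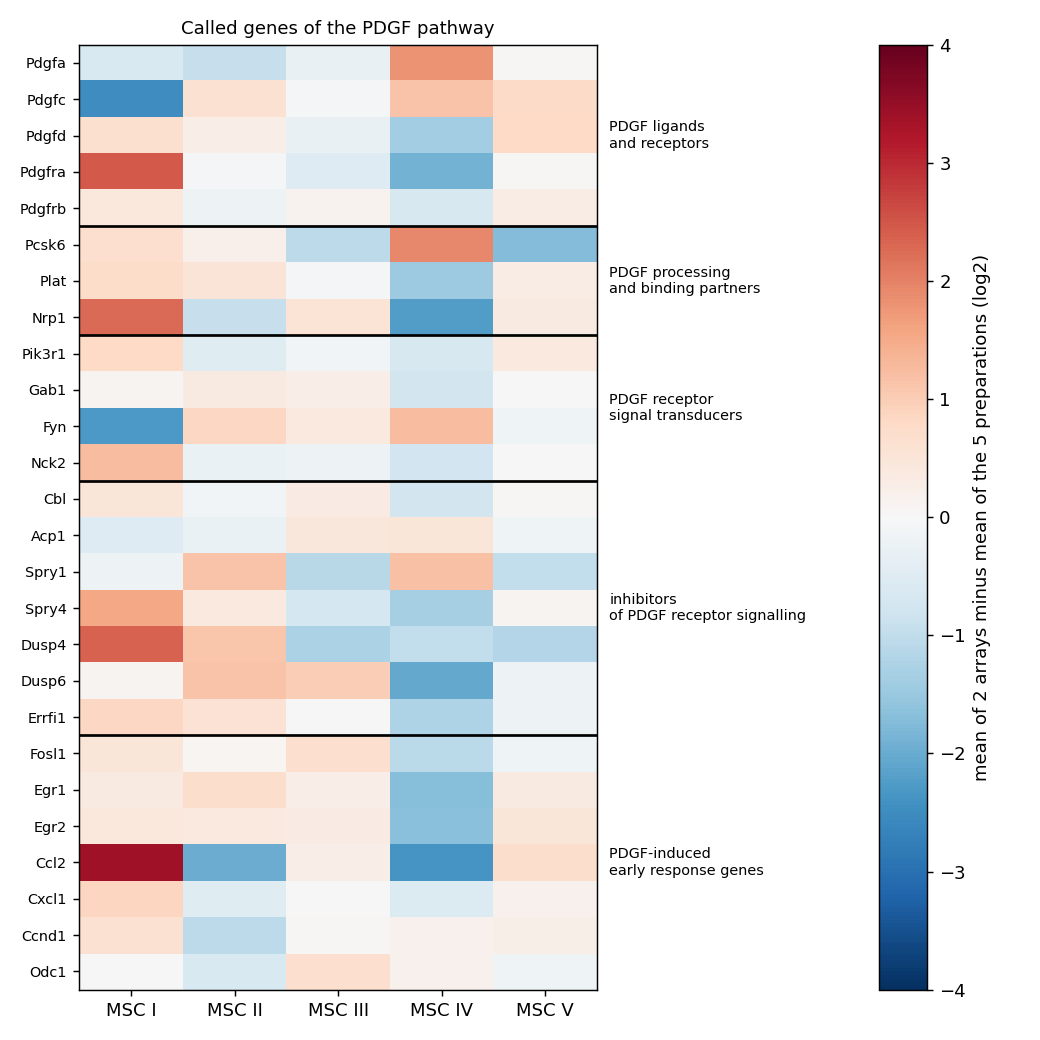
Mean level of each called gene of the family and of the 4 pathway lists in the 5 preparations, as the difference (log2) from the mean over preparations, red where higher and blue where lower. The MSC IV column is blue for Pdgfd, Pdgfra, Pdgfrb, Nrp1, Plat and most called inhibitors and early genes, and red for Pdgfa, Pdgfc, Pcsk6, Fyn and Spry1 among others.

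**Figure D4:**
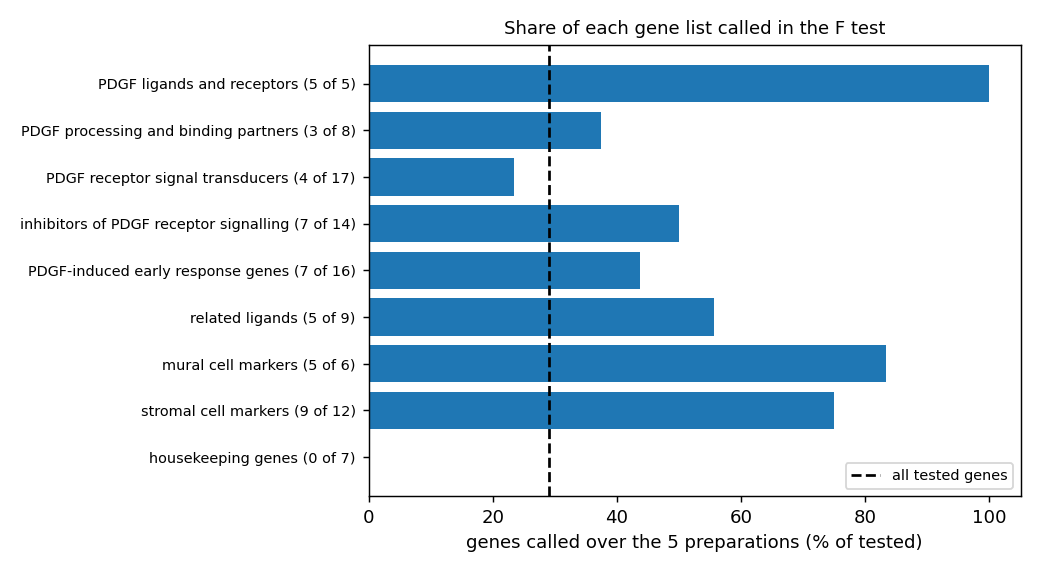
Share of tested genes called in the F test over the 5 preparations for each list with at least 4 tested genes, with the count in brackets and a dashed line at 29.1%, the share over all tested genes. The signal transducers lie near the line at 23.5%, and the housekeeping genes have no call.

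Across all lists other than the family itself, 43 genes were called, and 33 of them kept the call under every alternative in which they were tested. Plat, Pik3r1, Gab1, Acp1, Egr2, Cxcl1, Odc1, Pgf, Lepr and Nes lost theirs under at least 1. Leaving out 1 array ended the call of Egr2 (MSC IV replicate 1, adjusted p = 0.125) and of Pgf (MSC V replicate 1, adjusted p = 0.053), and of Cxcl1 (either array of MSC I, adjusted p up to 0.0661) and Gab1 (either array of MSC IV, up to 0.142). Acp1 fell under 1 log2 without MSC I replicate 1 or MSC IV replicate 2, or with the mean of its 5 probe sets, with a lowest range of 0.79. Odc1 also lost its call with the mean of its 2 probe sets. The calls of Plat, Pik3r1, Odc1, Lepr and Nes ended without 5, 6, 4, 6 and 7 of the 10 arrays in turn, with adjusted p up to 0.175, 0.128, 0.0936, 0.0766 and 0.141. The share of housekeeping genes called was 0 of 7 in limma, as all their ranges lay below 1 log2. An adjusted p under 0.05 was reached by 3 of the 7, Hprt, Tbp and Sdha (0.0128, 0.0152 and 0.00613 in limma's F test).

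The called receptors and ligands related to the PDGF family had their highest means in MSC I or MSC V. Of all 3192 called genes, 1212 were highest in MSC I and 402 in MSC V. Kit, the stem cell factor receptor of the same kinase class, had 10.52 and 10.16 in MSC I and between 4.94 and 6.67 on the other 8 arrays, a range of 5.20 (limma adjusted p = 0.000143). It was the 1 related receptor of 6 that passed the low-value filter, and it passed through MSC I, where it was high, and 1 array of MSC IV. Of 9 related ligands, which are VEGF-family and cytokine genes, 5 were called (55.6%, beside 29.1% of all genes). Kitl (range 4.85, limma adjusted p = 0.005) and Vegfd (3.72, adjusted p = 0.00412) had their highest means in MSC I, at 11.63 ± 0.714 and 9.97 ± 0.675 (SD, n = 2). Vegfc had 8.26 and 8.94 in MSC I and at most 6.23 on the other 8 arrays, and it passed the low-value filter only through MSC I. Pgf, placental growth factor, and Il34, a ligand of the CSF1 receptor, were highest in MSC V, at 9.09 ± 0.983 and 8.07 ± 0.00502. Vegfa, Vegfb, Csf1 and Flt3l had ranges under 1 log2.

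Most called mural markers were highest in MSC I, as were 1212 of all 3192 called genes. Stromal markers were split among the preparations rather than high or low together. Of 6 tested mural markers, which mark pericytes and smooth muscle, 5 were called (83.3%, beside 29.1% of all genes): Mcam, Notch3, Tagln and Angpt1 had their highest means in MSC I, and Anpep (CD13) was lowest there, at 5.40 ± 0.441 in MSC I and 9.64 ± 0.143 in MSC IV (SD, n = 2, limma adjusted p = 2.91e-05). Cspg4 (NG2), a defining pericyte marker, lay under the table median on 9 of 10 arrays and was not tested, with 6.50 and 7.20 in MSC IV and 4.94 to 5.39 elsewhere. Rgs5, Kcnj8, Abcc9, Des and Myh11 lay below the median on all 10 arrays. Rgs5 was lowest in MSC I, at 5.27, and highest in MSC II, at 6.27, and Kcnj8 was highest in MSC IV. Abcc9, Des and Myh11 had their highest means in MSC I, with a range of only 0.24 log2 for Myh11. Acta2 was also highest in MSC I, at 13.71, with a range of 0.70 under the minimum of 1 log2. The mean over the 12 mural genes was 8.05 and 7.69 in MSC I and lay between 7.00 and 7.39 on the other 8 arrays. Angpt1 weighed heavily in it, at 12.05 and 10.47 in MSC I and 5.20 to 9.05 on the other 8 arrays. No mean without Angpt1 was taken, so the mean of 12 does not show that the list as a whole was higher in MSC I. Of 12 stromal markers 9 were called (75%, beside 29.1% of all genes): Vcam1 (range 4.19, adjusted p = 0.000359) and Cxcl12 (3.25, adjusted p = 0.000591) were lowest in MSC IV, while Nt5e (CD73, 5.29, adjusted p = 0.000277) was highest there. Eng averaged 9.60 ± 0.132 in MSC IV (SD, n = 2) and had 5.57 to 5.85 on the other 8 arrays, and it passed the low-value filter only through MSC IV. Thy1 (CD90) was highest in MSC II, at 7.19. How much of the PDGF receptor differences goes with these marker differences was not tested.

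The genes whose pattern over the 10 arrays was most like that of each member were taken as the 4 with the highest Pearson r among tested genes with a range of at least 1 log2. Genes with predicted or clone names, olfactory and vomeronasal receptors and microRNAs were left out beforehand. These correlations describe 5 preparations with 2 arrays each, in which the arrays of a preparation share its cells, and carry no p. Pdgfa was followed by Pth1r, the parathyroid hormone receptor of osteoblasts (r = 0.976), and by Hecw2 (r = 0.976), Ostf1 (r = 0.974) and Entpd3 (r = 0.971). Pth1r had means of 5.73 in MSC I, 5.72 in MSC II, 6.95 in MSC III, 10.44 in MSC IV and 6.87 in MSC V. Pdgfc was followed by Ndrg1 (r = 0.977), a gene induced by hypoxia and stress, with means of 6.98 in MSC I and 10.65 to 11.94 in the others, and by Galc, Chchd7 and Shc2 (r = 0.967, 0.966 and 0.961). Shc2 encodes an adaptor of receptor tyrosine kinases.

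Pdgfd was followed by Layn, a hyaluronan receptor (r = 0.962), the kinase Prkca (r = 0.949), Pnp (r = 0.946) and Apol6 (r = 0.939). Pdgfra was followed by Tbc1d2b (r = 0.966), Hmgn3 (r = 0.965), the NF-kappaB inhibitor Nfkbie (r = 0.960) and Bmp1, the procollagen C-proteinase (r = 0.957). Bmp1 had means of 11.44 in MSC I, 10.76 in MSC II, 10.61 in MSC III, 10.11 in MSC IV and 10.90 in MSC V. Pdgfrb was followed by Lmod1, a leiomodin of smooth muscle (r = 0.964), Rnf24 (r = 0.959), Ppp1r12b, a subunit of myosin phosphatase (r = 0.958), and the peptide amidating enzyme Pam (r = 0.950).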

How the data were processed

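The authors deposited log2 expression values of 35399 probe sets on 10 single-colour arrays, per the labels, whose processing notes name RMA and Partek without a version. RMA corrects background, normalises by quantiles and compresses differences between low values. No value was missing and no arrays were identical.

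Names came from the platform's own annotation of probe sets (21789 with 1 symbol, 1621 with several, 11989 with none), with 21698 matched to RefSeq (GRCm38.p6), and those with 1 symbol were used, taking the highest mean per gene. Of 19938 genes, 10971 had at least 2 arrays above the table median and were fitted with limma 3.58.1 in R 4.3.3 on all 10 arrays, with a moderated F test and 10 pairwise contrasts, two-sided, adjusted by Benjamini-Hochberg. The number of arrays limits the precision. The scripts were tested on simulated data. Figures used Python 3.11.15.

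The 6 members and all lists were chosen with earlier results of these data known. Named genes were the members, the list genes and the 4 most similar genes per member. The alternatives were filters, probe set means, centring, quantile normalisation, trend and robust eBayes, a block for the replicate number, leaving out single arrays, and pairs alone. Some list genes passed the filter only where they were high.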

Additional observations from a re-analysis of the deposited data

How the results depend on the processing

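Of 900 pairwise results of the members under the alternatives, 870 kept their side of the threshold, 17 lost a call and 13 gained one. Where a difference was called in the main fit or in the alternative, 0 changed sign. Changes of sign among differences called in neither were not counted, and some small ones did change sign. Of 17 called differences, 11 held throughout. Pdgfa, Pdgfc, Pdgfd and Pdgfra were called over the 5 preparations in all 17 alternatives, with adjusted p up to 0.00151, 0.00181, 0.0368 and 0.0272. The Pdgfrb call ended without the low-value filter (range 1.05, adjusted p = 0.0822), with a further quantile normalisation (0.98, adjusted p = 0.0509) and with the replicate number as a block (1.05, adjusted p = 0.0901), and its range lay between 0.73 and 1.37 with single arrays left out. With single arrays left out, 4 to 5 members were called over the preparations, 14 to 18 member differences between pairs, and 37 to 47 genes of the other lists. A stricter filter left 1861 called genes in all, against 3192, and 2 called related ligands, against 5, since fewer genes were tested, and 0 haematopoietic markers, against 2, since neither was tested. With no filter, 8 mural markers were called, against 5, and 2 related receptors, against 1, as also with arrays centred on their medians. The replicate block gave 4 members, 17 member differences and 37 list genes, with 2 signal transducers, against 4. Replicate numbers did not pair the arrays in 1 direction: the differences between replicates correlated above 0.1 in 1 of 10 pairs of preparations (r from -0.55 to 0.20). In every other pair r was negative, so replicate differences tended to run in opposite directions. The spread within preparations was thus partly shared between them. Low values, such as those of Pdgfb and of Pdgfra on MSC IV replicate 1, are compressed and limit what can be read from them. The cause of these changes was not tested.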
